A study of Homo sapiens with 6 samples.

Results

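The genes described here were chosen by name and are 9 transcription factors that drive epithelial to mesenchymal transition (EMT) or that work with its drivers. The choice was made with earlier results of these data known. They are the zinc finger factors ZEB1, ZEB2, SNAI1 and SNAI2, the basic helix-loop-helix (bHLH) factors TWIST1, TWIST2 and TCF4, the homeobox factor PRRX1 and the forkhead factor FOXC2. On the array, 327 of 924687 tested rows carried 1 of these gene symbols, and the 9 genes were set among 22086 genes. A row is 1 exon region or 1 exon-exon junction. The rows were 74 for ZEB1, 101 for ZEB2, 25 for PRRX1, 9 for SNAI2, 5 for SNAI1, 17 for TWIST1, 9 for TWIST2, 82 for TCF4 and 5 for FOXC2.

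RNA came from BT549, a human breast cancer line of the triple-negative class, which lacks estrogen, progesterone and HER2 receptors. All 6 cultures carried the pTripZ-200c construct, which makes the microRNA miR-200c when doxycycline is present, and grew attached in RPMI with 10% FBS. One group of 3 cultures was left untreated and the other group of 3 received 1 µg/mL doxycycline, both for 48 hours. The submitters call each group a biological triplicate plated from these cells, so the p-values measure the spread between such cultures of 1 engineered line. The sources used here do not say whether that line is 1 clone. No culture without the construct was analysed here, so doxycycline and the microRNA cannot be told apart.

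Among EMT transcription factors, the zinc finger and bHLH factors bind E-box sequences in DNA. In EMT, epithelial genes such as E-cadherin are shut down, while mesenchymal genes come on. The ZEB factors and the miR-200 family form a double-negative loop: the microRNAs bind the ZEB messenger RNAs, and the ZEB proteins bind the miR-200 promoters and silence them. In breast cancer the loop is known for separating lines with epithelial features from mesenchymal ones, and BT549 is usually placed with the latter.

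The microRNA that was induced and its relatives are shown because the seed, bases 2 to 8 of the mature strand, sets which messages are bound. Sequences are from RefSeq on GRCh38.p14, written 5′ to 3′, with the seed in capitals. The chromosomal copy of miR-200c-3p lies at chr12:6963742-6963764 on the plus strand, in the MIR200C gene, while the induced copy is on the construct.
hsa-miR-200c-3p: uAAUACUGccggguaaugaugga
hsa-miR-200b-3p: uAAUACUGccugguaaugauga
hsa-miR-429: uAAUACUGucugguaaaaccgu
hsa-miR-141-3p: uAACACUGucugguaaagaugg
hsa-miR-200a-3p: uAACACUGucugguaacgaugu
Of 2370 mature names in the table, 3 carry the seed of miR-200c and 2 carry that of miR-141.

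The check of induction is the array's row for MIR200C. Untreated cultures A, B and C gave log2 intensities of 4.67, 5.15 and 5.07, and the doxycycline cultures gave 9.50, 9.53 and 9.55. The untreated values lay among the background rows, whose highest mean over the arrays was 6.29. Set against that level, the row was at least 9.47-fold brighter with doxycycline (limma, adjusted p = 2.75e-07 over all genes). The row is named for the microRNA gene and does not count the mature microRNA. Whether it read the construct's transcript or the chromosomal one cannot be told.

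As a check of the cell line, VIM, FN1 and CDH2, which encode the mesenchymal proteins vimentin, fibronectin and N-cadherin, had untreated means of 10.46, 8.97 and 9.90. Of the epithelial markers, EPCAM and CDH1 lay in the background range at 4.91 and 5.33 untreated. The epithelial keratin gene KRT8 was above background at 8.07 untreated, so the markers were not all on the mesenchymal side. The receptor genes ESR1 and PGR lay in the background range at 4.90 and 4.64, and ERBB2 was not tested as a gene named alone. PTPRC, PECAM1, CDH5 and DES, markers of leukocytes, endothelium and muscle, had untreated means from 4.26 to 5.32, at background. CD68, a lysosomal glycoprotein abundant in macrophages, was at 8.34 untreated and 7.64 with doxycycline (adjusted p = 0.00168). Its part in the results below was not tested. Array medians lay between 5.18 and 5.21, and the lowest correlation between 2 arrays over genes was 0.994.

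Of the 9 factors, ZEB1, ZEB2 and PRRX1 were lower with doxycycline and 0 were higher in limma at an adjusted p under 0.05, where 3.85% of all genes were lower and 6.06% were higher. At an unadjusted p under 0.05, 4 of the factors were lower and 0 were higher, where 9.34% and 12.5% of all genes were. The array values of the 2 groups did not overlap for 5 of the 9 factors, against 26.0% of all genes. SNAI1, SNAI2, TWIST1, TWIST2, TCF4 and FOXC2 did not pass. In RNA from whole cultures, fewer cells that express a gene and less RNA per cell cannot be told apart.

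ZEB1 is a zinc finger and homeodomain repressor of E-cadherin and of the miR-200 clusters. Averaged over its 74 rows, ZEB1 stood at log2 intensities of 7.44, 7.52 and 7.51 in untreated cultures A, B and C and at 6.71, 6.71 and 6.75 in the doxycycline cultures. All 3 doxycycline values lay below all 3 untreated values. The means were 7.49 ± 0.044 and 6.72 ± 0.023 (SD, n = 3 each). The fall was 0.77 on the log2 scale (95% interval -0.85 to -0.69, adjusted p = 1.03e-05).

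ZEB2, the close relative of ZEB1, was at 6.13, 6.15 and 6.19 in the untreated cultures and at 5.40, 5.38 and 5.40 in the doxycycline cultures. The groups again lay apart. The change in the mean was -0.76 (95% interval -0.84 to -0.69, adjusted p = 5.70e-06). Both group means over all rows, 6.16 and 5.40, lay under the background level of 6.29, so they give no fold. All 101 of its rows also name the antisense gene ZEB2-AS1, and strand handling is not described, so the transcripts cannot be told apart on those rows. On the 18 rows that name ZEB2-AS1 alone, changes ran from -0.25 to 0.22 and 0 passed the row test. Only 1 of those 18 rows had a mean above background, the exon region PSR02013358, at 10.58 untreated and 10.58 with doxycycline. The 16 rows of ZEB1-AS1, 5 of them above background, also gave 0 calls, with a change of 0.08 in their mean (adjusted p = 0.219).

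PRRX1, a paired-related homeobox factor of mesenchyme, was at 6.35, 6.38 and 6.40 untreated and at 6.05, 6.01 and 6.12 with doxycycline. The fall was smaller than those of both ZEB genes and exceeded the spread of the cultures. The change was -0.31 (95% interval -0.40 to -0.23, adjusted p = 0.00141). The doxycycline mean over all rows, 6.06, lay under the background level of 6.29.

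These gene means include rows that never rose above background. When the median row was used in place of the mean, 0 of the 9 factors passed: ZEB1 stood at -0.51 (adjusted p = 0.0784), ZEB2 at -0.22 (adjusted p = 0.0712) and PRRX1 at -0.25 (adjusted p = 0.321). The rows above background were 36 of 74 for ZEB1, 33 of 101 for ZEB2 and 11 of 25 for PRRX1, fewer than the dim rows of each gene. With junctions alone the change of PRRX1 was -0.28 (adjusted p = 0.133).

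Rows were next limited to those whose mean over all 6 arrays was above background, which some passed through their untreated values. Over these rows, ZEB1 had means of 9.75, 9.76 and 9.91 untreated and 8.36, 8.55 and 8.66 with doxycycline. That is a change of -1.29 (95% interval -1.50 to -1.07), 2.44-fold lower (adjusted p = 6.87e-04). ZEB2 had 9.14, 9.09 and 9.18 untreated against 7.12, 7.01 and 7.19 with doxycycline, a change of -2.03 (95% interval -2.18 to -1.88, adjusted p = 4.82e-05). Of these rows, 3 of ZEB1 and 8 of ZEB2 had doxycycline means under the background level. With values held at that level, ZEB1 was at least 2.38-fold lower and ZEB2 at least 3.70-fold lower. PRRX1 had 7.91, 7.90 and 7.88 against 7.32, 7.38 and 7.43, which is 1.43-fold lower (adjusted p = 0.00281). In each of these genes every doxycycline culture lay below every untreated culture.

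The size of the change was set side by side for the ZEB genes by subtracting ZEB1 from ZEB2 on each array. Over all rows the difference of the changes was 0.01 (two-sided exact permutation test, p = 0.8). Those means average in rows at background, 68 of 101 in ZEB2 and 38 of 74 in ZEB1. The all-row comparison therefore cannot show that the 2 genes fell equally. Over the brighter rows, with values under the background level held at it, the difference was -0.64 and the groups did not overlap (two-sided exact permutation test, p = 0.1, the smallest that 3 arrays against 3 allow). Rows at that level bound the difference, so it is no exact size. The comparison on brighter rows was added after seeing the data, and some of its rows entered only through their untreated values.

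**Figure D1:**
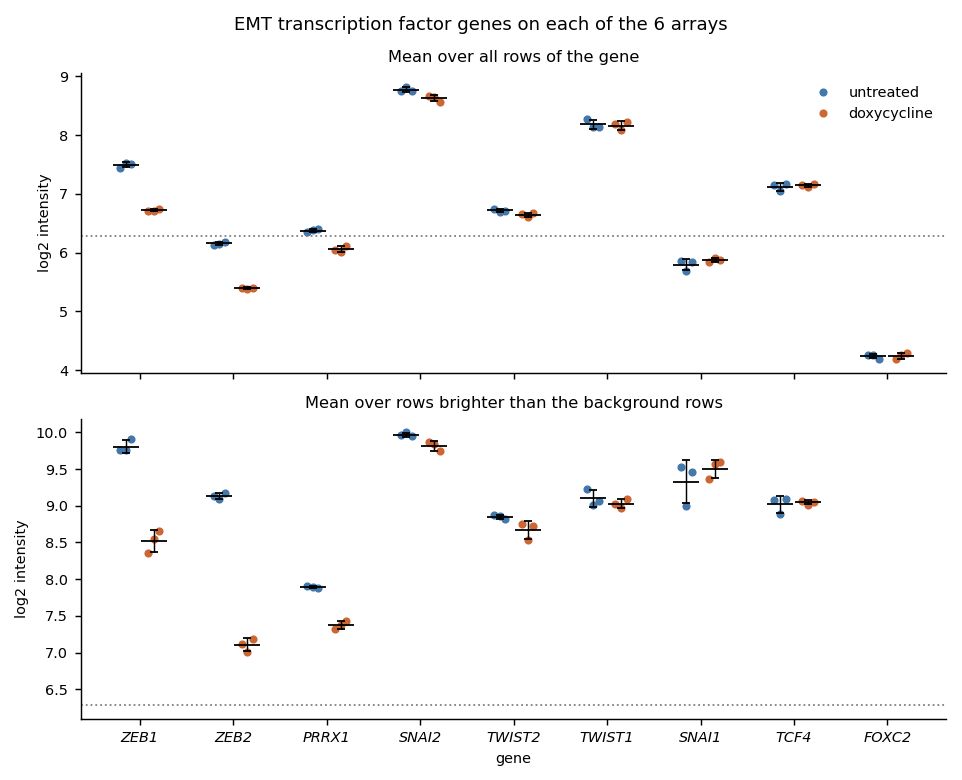
Log2 intensity of each factor on each array, averaged over all its rows (top) and over its rows brighter than the background rows (bottom), with means and SD bars of 3 cultures a group. The dotted line is the highest background row mean, 6.29. ZEB1, ZEB2 and PRRX1 sit lower with doxycycline in both panels, and FOXC2 has no row in the lower one.

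SNAI2 (Slug), a zinc finger repressor of E-cadherin, was at 8.75, 8.82 and 8.74 untreated and at 8.67, 8.64 and 8.57 with doxycycline. The groups did not overlap, but the change of -0.15 did not pass (95% interval -0.24 to -0.05, adjusted p = 0.0599). It passed when its 6 exon regions alone were averaged (-0.25, adjusted p = 0.0177) and when only brighter genes were tested (adjusted p = 0.0395). With its 3 junctions alone the value was 0.05 (adjusted p = 0.759). Over its 7 rows above background it was -0.16 (adjusted p = 0.162), and their changes ran from -0.44 to 0.58. The row at the upper end was a junction, JUC08007952, at 6.36, 6.82 and 6.73 untreated and 7.02, 7.54 and 7.10 with doxycycline (adjusted p = 0.304 over all rows). Exon regions and junctions of SNAI2 thus gave means of opposite sign.

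SNAI1 (Snail), the founding repressor of the same family, was at 5.86, 5.68 and 5.84 untreated and at 5.84, 5.90 and 5.87 with doxycycline. The groups overlapped, and the difference was 0.08 (95% interval -0.04 to 0.19, adjusted p = 0.455). Only 1 of its 5 rows, the junction JUC20003123, was above background. That row read 9.53, 8.99 and 9.46 untreated and 9.36, 9.56 and 9.59 with doxycycline, a difference of 0.18 (adjusted p = 0.792). What the arrays measured of SNAI1 above background thus rests on that junction.

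TWIST1, a bHLH factor that induces mesenchymal genes, was at 8.28, 8.14 and 8.13 untreated and at 8.18, 8.08 and 8.22 with doxycycline. The difference was -0.02 (95% interval -0.14 to 0.10, adjusted p = 0.864). Its 13 rows above background had changes from -0.27 to 0.14, with a median of -0.09. TWIST2 was at 6.74, 6.69 and 6.71 untreated and at 6.65, 6.61 and 6.67 with doxycycline, which do not overlap. The difference was -0.08 (95% interval -0.15 to 0.00, adjusted p = 0.247). Among its 4 rows above background, the exon region PSR02023470 had the lowest change, from 8.32, 8.43 and 8.24 to 8.03, 7.60 and 7.76 (-0.53, adjusted p = 0.164).

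TCF4 (E2-2), a bHLH partner of the TWIST factors, was at 7.14, 7.05 and 7.16 untreated and at 7.14, 7.12 and 7.17 with doxycycline. The difference was 0.03 (95% interval -0.06 to 0.12, adjusted p = 0.766). TCF4 was well covered, with 45 of 82 rows above background, and 0 of the 82 passed the row test. The change over its brighter rows was 0.03 (95% interval -0.14 to 0.19). FOXC2, a forkhead factor, was at 4.26, 4.25 and 4.20 untreated and at 4.18, 4.25 and 4.29 with doxycycline. None of its 5 rows was above background, so the arrays give no measured level of FOXC2 in either group.

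Row by row, 61 of the 327 rows of the factors were lower and 0 were higher at an adjusted p under 0.05 over all rows (limma), where 0.277% of all rows were lower and 0.451% were higher. At an unadjusted p under 0.05, 95 were lower and 5 were higher, where 4.62% and 5.52% of all rows were. The lower rows were 30 of ZEB2, 28 of ZEB1 and 3 of PRRX1. Rows above the background level in both groups numbered 25 for ZEB2, of which 20 were lower, and 32 for ZEB1, of which 26 were lower. Of all rows above that level in both groups, 0.651% were lower and 0.863% were higher. A limit on both groups, added after seeing the data, leaves out rows that fell under the level. The rows of a gene share arrays and are not replicates of each other. Without untreated C, 18 rows of ZEB1 were lower. For PRRX1 the number was 1 without untreated B or C and 0 without untreated A or any doxycycline array.

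**Figure D2:**
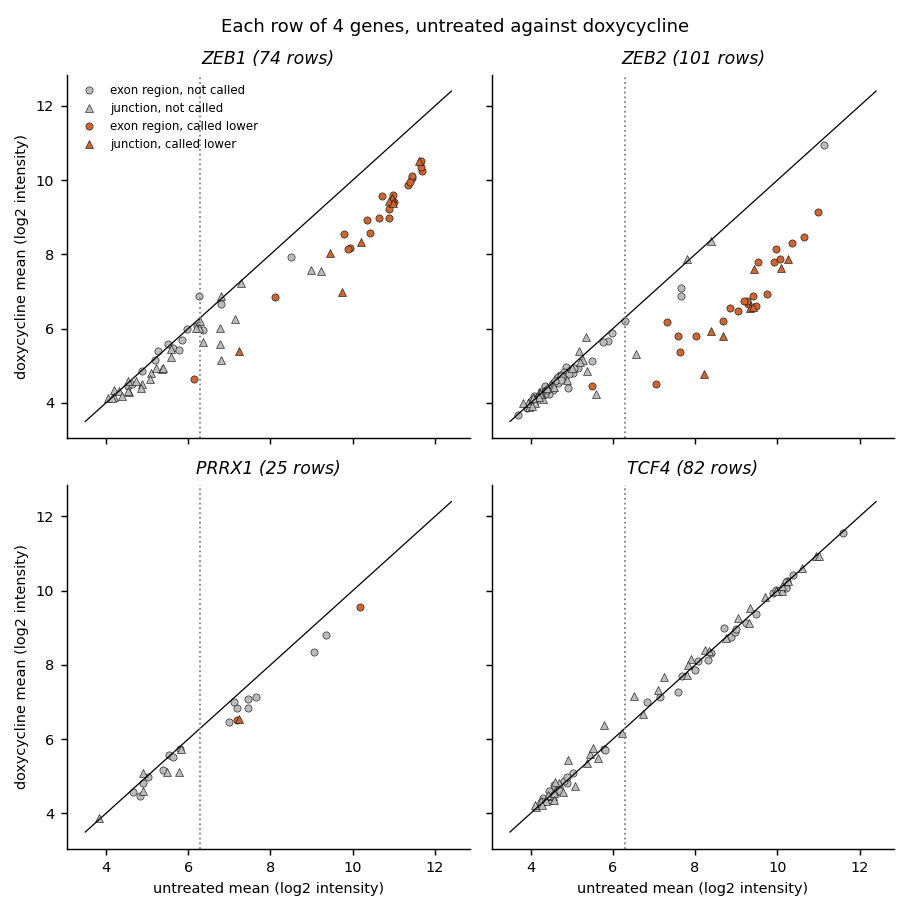
Mean log2 intensity of each row in 3 untreated cultures (x) and 3 doxycycline cultures (y) for ZEB1, ZEB2, PRRX1 and TCF4, with circles for exon regions and triangles for junctions. The diagonal marks equal values and the dotted line the highest background row mean, 6.29. Most bright rows of ZEB1 and ZEB2 lie under the diagonal, with 2 of ZEB1 and 1 of ZEB2 above it, while the 82 rows of TCF4 lie on both sides of it.

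Among the 25 ZEB2 rows above background in both groups the median change was -2.18. The junction JUC02019661 had the most negative change, from 7.89, 8.09 and 8.65 to 4.93, 4.53 and 4.89 (adjusted p = 0.00242). Its doxycycline values were at background, so it was at least 3.79-fold lower. The junction JUC02019662 read 8.79, 8.69 and 8.59 untreated and 5.65, 5.78 and 5.97 with doxycycline, at least 5.29-fold lower (adjusted p = 5.82e-04). The exon region PSR02037810 stayed measurable in both groups, at 9.42, 9.38 and 9.66 against 6.57, 6.41 and 6.82, which is 7.39-fold lower (adjusted p = 9.95e-04).

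In ZEB1 the 32 rows above background in both groups had a median change of -1.43. The junction JUC10001359 had the most negative, from 9.67, 9.86 and 9.66 to 6.70, 7.12 and 7.17, which is 6.66-fold lower (adjusted p = 0.00149). The exon region PSR10002552 went from 10.87, 10.62 and 11.12 to 8.72, 9.19 and 9.01, 3.72-fold lower (adjusted p = 0.00760). The junction JUC10001380 went from 10.19 ± 0.089 to 8.32 ± 0.28 (SD, n = 3 each), 3.65-fold lower (adjusted p = 0.00526). Each row kept its 3 doxycycline cultures under its 3 untreated ones. The 3 rows were picked as the largest falls among those called, so this separation adds no support.

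The 3 lower rows of PRRX1 had smaller changes. The junction JUC01012121 went from 7.34, 7.34 and 7.03 to 6.58, 6.53 and 6.48 (-0.70, adjusted p = 0.0456). The exon region PSR01022980 went from 7.21, 7.18 and 7.17 to 6.49, 6.57 and 6.53 (-0.66, adjusted p = 0.0140). The exon region PSR01022999 went from 10.26, 10.12 and 10.18 to 9.55, 9.62 and 9.54 (-0.62, adjusted p = 0.0241). All 11 bright rows of PRRX1 had negative changes, from -0.71 to -0.10.

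Some bright rows of the ZEB genes did not pass the row test, 5 in ZEB2 and 9 in ZEB1. They differ among themselves in the size and the sign of their change. In ZEB1 the junction JUC10001357 had a change of -1.68 (adjusted p = 0.0522) and the junction JUC10001371 one of -1.41 (adjusted p = 0.217). The brightest row of ZEB2, the exon region PSR02037778, read 11.24, 11.08 and 11.06 untreated and 10.98, 11.03 and 10.79 with doxycycline (-0.19, adjusted p = 0.590). In ZEB1 the exon region PSR10002517 read 6.37, 6.12 and 6.32 untreated and 6.58, 7.11 and 6.97 with doxycycline (0.62, adjusted p = 0.186). These rows were singled out after their values were seen.

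Whether rows departed from their own gene was tested on each row minus its gene's mean on the same array. At an adjusted p under 0.05, 57 rows did, 43 in ZEB2 and 14 in ZEB1, where 0.198% of all rows in the test did. A gene's mean includes its dim rows, so a bright row that changed as other bright rows did can count as a departure, such as the ZEB1 exon region PSR10002534 with a change of -1.46. The change was more negative than the gene's in 23 of these rows of ZEB2 and 9 of ZEB1, and less negative in 20 and 5. Of the latter, 20 and 4 had means at background. In ZEB1 the remaining one was PSR10002517, at 1.39 above its gene's change (adjusted p = 0.0307). The number of calls depended on every array, with 11, 19 and 12 without untreated A, B and C and 19, 9 and 16 without doxycycline A, B and C. It was 3 with the replicate letters as a block and 113 with diffSplice, another test of uneven change.

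The exon regions can be put in order by row number, which followed gene start within a chromosome strand on GRCh38.p14 (Spearman rho 0.955 over 293 genes of the chromosome 10 plus strand and 1.00 over 463 genes of the chromosome 2 minus strand). The order of regions inside a gene was not tested. In ZEB1, on the plus strand, 16 of the 18 higher-numbered regions and 4 of the 17 lower-numbered ones were lower. In ZEB2, on the minus strand, 19 of the 32 lower-numbered regions and 3 of the 33 higher-numbered ones were lower. Rows above background followed the same split, with 16 and 6 in ZEB1 and 20 and 3 in ZEB2. PRRX1 had 1 lower region on each side.

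**Figure D3:**
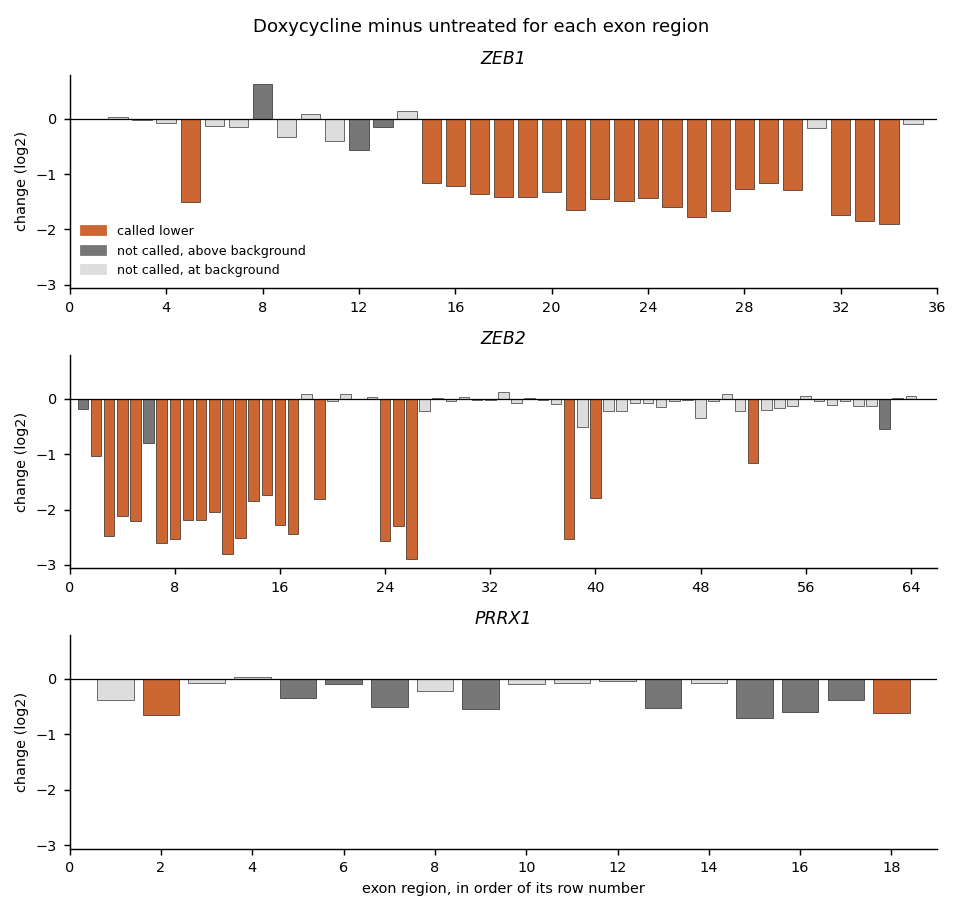
Change (doxycycline minus untreated, log2) of each exon region of ZEB1, ZEB2 and PRRX1 in order of row number, coloured by the row test and by whether the row was above background. Lower regions gather at the high numbers in ZEB1 and at the low numbers in ZEB2, where most regions above background also lie.

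ZEB and SNAI proteins bind the E-box CACCTG and its reverse complement CAGGTG. Since ZEB1 and ZEB2 were both lower, their promoter windows in RefSeq (300 bases around a transcript start, GRCh38.p14) were searched for both forms. Matches were in 2 of 7 windows of ZEB1, in 0 of 1 of each of ZEB2, PRRX1 and TWIST2, in 0 of 10 of TCF4, and in 20.6% of all 35116 windows. The ZEB1 window with the most matches is chr10:31318966-31319265 (plus strand), with its 3 matches in capitals, and the ZEB2 window is chr2:144520070-144520369 (minus strand).
ZEB1: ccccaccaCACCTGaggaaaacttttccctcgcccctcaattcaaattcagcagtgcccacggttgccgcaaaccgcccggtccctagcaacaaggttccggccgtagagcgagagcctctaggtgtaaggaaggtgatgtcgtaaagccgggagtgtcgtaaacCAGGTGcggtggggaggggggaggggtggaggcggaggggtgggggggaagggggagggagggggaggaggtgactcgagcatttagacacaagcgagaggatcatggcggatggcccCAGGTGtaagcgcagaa
ZEB2: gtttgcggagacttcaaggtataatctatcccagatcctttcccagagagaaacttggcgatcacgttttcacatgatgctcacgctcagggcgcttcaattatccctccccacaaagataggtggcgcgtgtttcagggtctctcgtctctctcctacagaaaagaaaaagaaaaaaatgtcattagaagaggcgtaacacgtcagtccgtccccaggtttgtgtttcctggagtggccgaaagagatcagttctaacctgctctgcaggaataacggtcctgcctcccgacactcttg
A match is a description of these letters and was not tested for binding.

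Genes that work with these factors were read from 7 lists, which were chosen with earlier results of these data known. Of 180 measured genes, 20 were lower and 29 were higher, that is 11.1% and 16.1% beside the 3.85% and 6.06% of all genes. Their median change was 0.02, and that of all genes was -0.01. The lower count was 13 without untreated A and 12 without doxycycline B, and 10 with junctions alone. With the median row it was 8, and the higher count was then 17.

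Among 39 epithelial genes reported as repressed by ZEB or SNAI factors, 17 were higher (43.6%, all genes 6.06%) and 0 were lower. The median change over the list was 0.06. CDH1, which encodes E-cadherin, was at 5.26, 5.36 and 5.37 untreated and at 7.06, 7.05 and 7.18 with doxycycline (1.77, adjusted p = 5.92e-07). CDS1, a lipid enzyme, differed by 1.68 (adjusted p = 1.53e-06), and ESRP1, an epithelial splicing regulator, by 1.56 (adjusted p = 5.34e-07). INADL, a tight junction scaffold now called PATJ, differed by 1.49 (adjusted p = 2.30e-07). The untreated means of CDH1, ESRP1 and INADL over their rows lay in the background range. Of the 17 higher genes, RBM47, PKP3, EPCAM, VDR and SPINT1 had the means of both groups in that range.

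Among 21 mesenchymal genes reported as induced by SNAI, TWIST or PRRX1, 11 were lower (52.4%, all genes 3.85%). In the same list 1 was higher (4.76%, all genes 6.06%), and the median was -0.16. Of the 11 lower genes, MMP2 had the means of both groups in the background range, at 5.90 untreated and 5.68 with doxycycline. POSTN, the matrix protein periostin, changed by -0.99 (adjusted p = 1.41e-04) and LOX, a collagen cross-linking enzyme, by -0.71 (adjusted p = 2.79e-05). ACTA2, smooth muscle actin, changed by -0.48 (adjusted p = 9.53e-04) and FN1 by -0.41 (adjusted p = 7.66e-04). CDH2, N-cadherin, went against the list at 0.15 (adjusted p = 0.0236), with 9.87, 9.93 and 9.91 untreated and 10.07, 10.07 and 10.03 with doxycycline.

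Of 25 other EMT transcription factors, 4 were lower (16%, all genes 3.85%) and 0 were higher, with a median of -0.02. They were PRRX2, the paralog of PRRX1 (-0.26, adjusted p = 0.00509), ETS1 (-0.25, adjusted p = 0.00184), SOX4 (-0.24, adjusted p = 0.0111) and GATA6 (-0.17, adjusted p = 0.0300). PRRX2 had means in the background range in both groups.

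Of 9 bHLH partners and ID inhibitors, 2 were higher (22.2%, all genes 6.06%) and 0 were lower, with a median of 0.13. Both are ID proteins, which lack a DNA-binding region and hold bHLH partners off DNA. ID4 had means of 7.41 ± 0.10 untreated and 7.95 ± 0.18 with doxycycline (0.54, adjusted p = 0.00554). ID2 had means of 7.66 ± 0.012 untreated and 7.95 ± 0.072 with doxycycline (0.28, adjusted p = 0.00357). For ID4 and ID2, the groups did not overlap. The ID genes ID1 (0.20, adjusted p = 0.165) and ID3 (0.21, adjusted p = 0.302) did not pass, and their groups overlapped.

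In a list of 30 measured genes, mainly corepressors that ZEB and SNAI factors recruit, 1 was lower and 2 were higher, with a median of 0.03. That is 3.33% and 6.67%, near the 3.85% and 6.06% of all genes. The coactivator gene NCOA3 changed by -0.23 (adjusted p = 0.00876), the LIM protein AJUBA by 0.22 (adjusted p = 0.0128) and the histone deacetylase HDAC1 by 0.13 (adjusted p = 0.0496). Of 27 genes for protein turnover of the factors, 1 was lower and 1 was higher (3.70% each way, not above the shares of all genes), with a median of 0.03. These were the kinase LATS1 (-0.14, adjusted p = 0.0253) and the ubiquitin ligase subunit FBXL5 (0.17, adjusted p = 0.0292).

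Of 31 upstream inducers, 3 were lower (9.68%, all genes 3.85%) and 6 were higher (19.4%, all genes 6.06%), with a median of 0.01. JAG2, a Notch ligand, differed by 0.45 (adjusted p = 1.20e-04) with means in the background range. WNT5A, another of the 6 higher genes, also had means in that range, at 5.57 untreated and 5.73 with doxycycline. The receptor genes TGFBR2, for TGF-beta, and MET, for hepatocyte growth factor, differed by 0.37 (adjusted p = 0.00103) and 0.28 (adjusted p = 0.00156). The cytokine IL6 changed by -0.58 (adjusted p = 3.64e-04), SMAD2, a mediator of TGF-beta signals, by -0.16 (adjusted p = 0.0461) and ILK, a kinase at integrin contacts, by -0.18 (adjusted p = 0.0390).

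**Figure D4:**
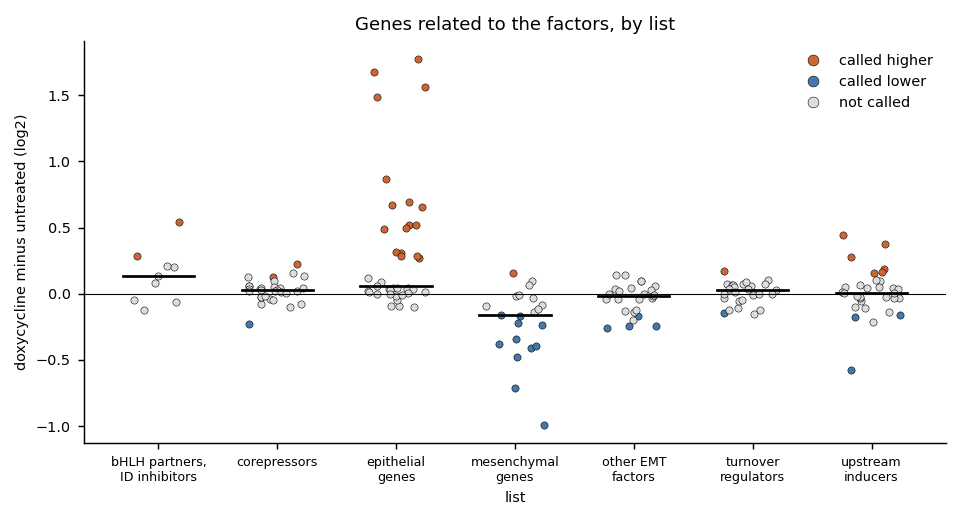
Change (doxycycline minus untreated, log2) of each gene in 7 lists of related genes, coloured by the limma call, with the list's median as a bar. Called genes are on the higher side in the epithelial list (17 of 39) and mostly on the lower side in the mesenchymal list (11 of 21).

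The genes whose array values were most like those of ZEB1 were sought among 232 genes with at least 3 rows and a change of at least 0.5 in size. By Pearson's r over the 6 arrays they were NPC1 (0.999, change -0.61), ANK2 (0.999, change -0.65), ZEB2 (0.998, change -0.76), TMEM47 (0.998, change -0.52) and IL8 (0.998, change -1.04), now called CXCL8. The 6 arrays fall into 2 groups that lie apart in each of these genes, so r describes mainly the step between groups.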

How the data were processed

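Every value in the deposited file is, by its range, a log2 intensity, with a value for each row and array. The submitters' processing notes name Partek without a role. How background, normalization and summarisation were handled, and on which genome build, was not found in the labels. Per the labels, total RNA was labelled with a FlashTag biotin kit. The row names are those of an Affymetrix transcriptome array (PSR for exon regions, JUC for junctions), and symbols came from the platform annotation in GEO.

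The 345 control rows were left out of the tests and 0 other value columns were present. A gene's value was the mean over rows naming it alone, or for the 9 factors over all rows naming them. Groups of 3 arrays were compared with limma 3.58.1 (lmFit, eBayes) in R 4.3.3, with Benjamini-Hochberg adjustment over all genes or rows and a threshold of 0.05. The R package data.table (1.17.8) read the file and matplotlib 3.10.9 drew the plots. A row counts as above background where its mean over 6 arrays exceeded 6.29, the highest of 23 background rows. The precision is limited by the number of arrays. Where a group lay under that level, folds were taken against it and are lower bounds. Gene means average dim rows with bright ones.

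The gene, row and departure tests were tested on simulated data before use. The gene test found 52% of log2 changes of 0.25 and 92% of changes of 0.5. The row test found 37.06% of changes of 0.5 and 80.78% of changes of 1. The departure test found 66% of changes of 2. False calls were 7 for genes, 585 for rows and 6 for departures. Named were all 9 factors, MIR200C, marker genes, for each list up to 4 called genes with the smallest p and those against the majority, for each factor the 3 called rows with the largest fall, and the 5 genes most like ZEB1. Beyond that rule, rows of the factors that were not called were chosen after their values were seen. The factors and lists were chosen with earlier results of these data known. Replicate letters did not pair the arrays: the correlations of same-letter deviations were -0.17, -0.03 and 0.22. Alternatives were the median row, brighter rows, exon regions or junctions alone, rows naming a factor alone, quantile normalization, an intensity trend, a filter on dim features, a replicate block, leaving out each array, and diffSplice.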

Additional observations from a re-analysis of the deposited data

How the results depend on the processing

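The number of factors called lower was 3 in the fits without 1 array, with brighter rows, quantile normalization, an intensity trend or the replicate block, and 0 with the median of the rows. It was 4 with exon regions alone (SNAI2 added) and 2 with junctions alone (ZEB1 and ZEB2). It was 2 with rows naming a factor alone, where ZEB2 has none. When only genes with a mean above background were tested, the 2 were ZEB1 and SNAI2, since ZEB2 and PRRX1 were then not tested. Without 1 array the changes ran from -0.79 to -0.75 for ZEB1, -0.77 to -0.75 for ZEB2 and -0.34 to -0.29 for PRRX1. Rows of the factors called lower were 43 to 56 without 1 array and 41 with the replicate block (ZEB1 17, ZEB2 24, PRRX1 0).

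Rows that departed from their gene were 57 and became 3 with the replicate block, 9 to 19 without 1 array and 113 with diffSplice. The cause was not tested. Related genes called lower were 20, with 12 to 17 without 1 array, 10 with junctions alone and 8 with the median of the rows, which also left 17 higher in place of 29. With the replicate block they were 15 lower and 25 higher.

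Signs turned for factors that had not passed. With the median of the rows SNAI1 was at -0.055 and FOXC2 at -0.055. With exon regions alone TWIST1 was at 0.0025 and TCF4 at -0.017. With junctions alone SNAI2 was at 0.050 and TWIST2 at 0.044. Without 1 array TWIST1 ran from -0.051 to 0.024, TCF4 from -0.0065 to 0.051 and FOXC2 from -0.020 to 0.033.

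With 3 arrays a group, small changes of SNAI1, TWIST1, TWIST2 or TCF4 within their intervals can be missed. Signal limits rows with means at background, which include all of FOXC2 and 68 of 101 of ZEB2, although 2 such rows of ZEB2 and 1 of ZEB1 were called lower. The replicate letters did not pair the arrays, so the block is given as a check alone.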
